A study of Mus musculus with 8 samples.

Results

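Proteasome subunits, their activators and their assembly factors were followed in mouse bone marrow neutrophils with and without a Toll-like receptor 7 (TLR7) agonist. The set was taken by symbol from the count table: every gene whose symbol starts with Psma, Psmb, Psmc, Psmd, Psme, Psmf or Psmg followed directly by a digit. Of 24421 genes listed, 50 matched, and 49 of these passed the filter of 1 count or more in 2 or more libraries, as did 12254 genes in all, which were tested. Psmb11, the catalytic subunit of the thymus, was at 0 in all 8 libraries and was the gene not tested. Of the 49, 42 averaged 10 counts or more. Psmc3ip matched the symbol rule but encodes a recombination factor, not a proteasome subunit.

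The 20S core of the proteasome is a barrel of alpha and beta subunits in which ubiquitin-tagged proteins are cut, and the 19S cap, built of ATPases and non-ATPase subunits, unfolds the substrates and feeds them in. Interferons and related signals exchange the catalytic beta subunits Psmb6, Psmb7 and Psmb5 for Psmb9, Psmb10 and Psmb8, which together make the immunoproteasome, and raise the PA28 activator made of Psme1 and Psme2. The exchange changes the peptides made for display on class I molecules, and in the myeloid lineage both forms of the core are known to be present.

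Bone marrow neutrophils for RNA sequencing came from 8-week-old female C57BL/6 mice, either wild-type (WT) or Padi4 knockout (KO), a strain that lacks exon 1 of the gene for peptidylarginine deiminase 4. Neutrophils were isolated magnetically and left unstimulated or given R848, a TLR7 agonist, at 1 µg/ml for 6 h, which makes 4 groups of 2 libraries. The study used the data to ask how the response to R848 depends on Padi4. The labels do not say whether duplicates came from separate mice, so p-values measure the spread between duplicates, which may be technical. Sample titles give 0 h for the unstimulated libraries and the protocol gives 6 h. Under the first reading, R848 and time in culture cannot be told apart.

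Libraries held 562446 to 1177972 counts on genes, with the 4 WT libraries below the 4 KO libraries. At these depths a count of 3 is between 2.55 and 5.33 CPM, the unit of counts scaled to a common library total. Padi4 had 590 and 527 counts in unstimulated WT, 166 and 234 in WT after R848, 40 and 54 in unstimulated KO and 34 and 21 in KO after R848, with every KO library below every WT library. Of 12 neutrophil markers, 11 were in the table and all 11 were detected. Their sum, as CPM of the whole library, was 151535 to 157754 in unstimulated WT, 127335 to 141468 in WT after R848, 123780 to 125320 in unstimulated KO and 102636 to 103287 in KO after R848. Duplicates of WT after R848 stood furthest apart, with a chi-square of 1.67 per degree of freedom against 1.05 to 1.16 in the other groups.

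The catalytic subunits moved in opposite directions after R848 in both genotypes. The constitutive subunits Psmb5 and Psmb7 rose, and the inducible subunits Psmb8, Psmb9 and Psmb10, which define the immunoproteasome, fell. Levels below are CPM scaled by trimmed mean of M-values (TMM) factors, and a gene was said to rise or fall where the p of the quasi-likelihood test of edgeR, adjusted by Benjamini and Hochberg's method over all 12254 genes, was below 0.1. In bulk RNA, fewer cells of a type and less RNA per cell cannot be told apart.

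Psmb5 carries the chymotrypsin-like site of the constitutive core. It was at 29.4 and 25.9 CPM in unstimulated WT, 57.1 and 81.4 in WT after R848, 23.7 and 30.5 in unstimulated KO, and 65.7 and 74.4 in KO after R848. Every R848 library was above every unstimulated one. The log2 fold change was 1.33 (SE 0.29, adjusted p = 4.37e-05) in WT and 1.33 (SE 0.21, adjusted p = 4.42e-09) in KO. Psmb7, with the trypsin-like site, was at 74.2 and 63.9 CPM before and 106 and 97.4 after R848 in WT, and at 82.5 and 71.1 before and 113 and 111 after in KO. It rose by a log2 fold change of 0.55 (SE 0.22, adjusted p = 0.0464) in WT and 0.56 (SE 0.15, adjusted p = 0.00142) in KO, and the groups did not overlap in either genotype. Psmb6, with the caspase-like site, was at 41.7 and 38.0 CPM before and 53.0 and 58.4 after R848 in WT, and at 43.0 and 51.5 before and 63.1 and 73.5 after in KO. Its log2 difference was 0.48 (SE 0.28, adjusted p = 0.226) in WT and it rose by 0.50 (SE 0.19, adjusted p = 0.0272) in KO. The Psmb5 rise passed in all 15 alternative analyses in each genotype. Psmb7 lost its call in WT without WT_Nostim replicate 2 (0.45, adjusted p = 0.241), and in KO without KO_Nostim replicate 2 (0.44, adjusted p = 0.108) and KO_R848 replicate 1 (0.41, adjusted p = 0.11). Psmb6 lost its call in KO without any 1 of KO_Nostim replicate 1, WT_R848 replicates 1 and 2 and KO_R848 replicates 1 and 2, with 0.26 at the lowest, and DESeq2 and library size alone called neither gene in either genotype.

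Psmb9, the inducible counterpart of Psmb6, had the steepest fall of the 3 inducible subunits in WT. In WT it was at 74.2 and 58.7 CPM before and 14.3 and 23.0 after R848. In KO it was at 40.7 and 62.4 before and 25.8 and 21.1 after. All 4 R848 libraries were below all 4 unstimulated ones. Its log2 fold change was -1.81 (SE 0.33, adjusted p = 4.1e-07) in WT and -1.19 (SE 0.24, adjusted p = 3.67e-06) in KO. Over the alternatives it ran from -2.12 to -1.40 in WT and from -1.57 to -0.79 in KO, past the threshold in each. The fall was at its smallest in KO without KO_Nostim replicate 2.

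Psmb10, the inducible counterpart of Psmb7, was at 29.4 and 25.9 CPM before and 8.15 and 12.4 after R848 in WT. In KO it was at 24.9 and 30.5 before and 9.77 and 11 after. The log2 fold change was -1.40 (SE 0.48, adjusted p = 0.0164) in WT and -1.43 (SE 0.34, adjusted p = 0.00018) in KO, with no overlap between stimulated and unstimulated libraries. With 16.5 counts on average, Psmb10 was the lowest of the catalytic subunits, and its WT call was lost without WT_Nostim replicate 1 (-1.30, adjusted p = 0.106), without WT_R848 replicate 1 (-1.02, adjusted p = 0.223) and with DESeq2 (-1.34, adjusted p = 0.157). Psmb8, the inducible counterpart of Psmb5, was at 125 and 72.5 CPM before and 63.2 and 42.5 after R848 in WT, and at 80.3 and 74.7 before and 46.2 and 43.2 after in KO. It fell by 0.94 on the log2 scale (SE 0.23, adjusted p = 0.000416) in WT and by 0.78 (SE 0.19, adjusted p = 0.000188) in KO. In WT the call depended on single libraries: the log2 fold change was -0.47 (adjusted p = 0.321) without WT_Nostim replicate 1 and -0.56 (adjusted p = 0.163) without WT_R848 replicate 2. In KO, both Psmb8 and Psmb10 passed in all 15 alternatives.

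**Figure D1:**
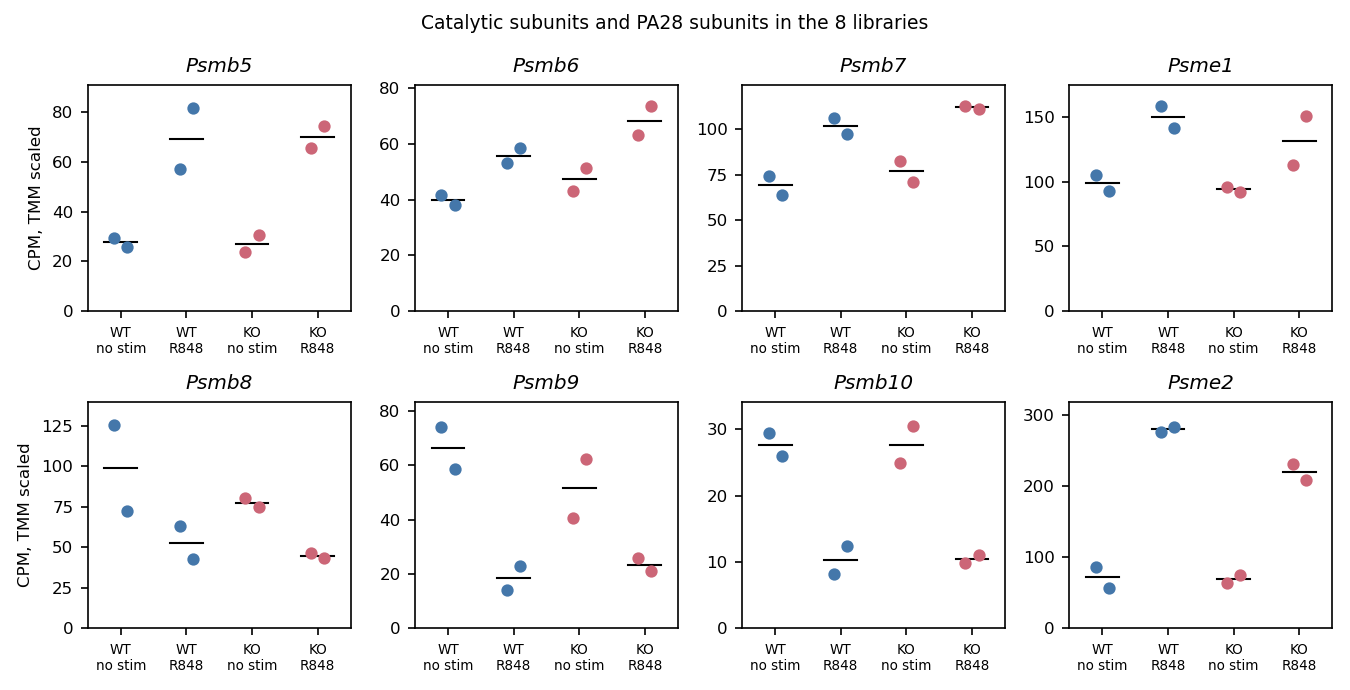
Level of the constitutive catalytic subunits (Psmb5, Psmb6, Psmb7), the inducible ones (Psmb8, Psmb9, Psmb10) and the PA28 subunits (Psme1, Psme2) in each library, in TMM-scaled CPM on axes that start at 0. Points are the 2 libraries of a group and lines their mean. Psmb5, Psmb6, Psmb7, Psme1 and Psme2 lie higher, and Psmb8, Psmb9 and Psmb10 lower, in all 4 R848 libraries than in the 4 unstimulated ones. For Psmb6 the WT difference did not pass the test.

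Setting each inducible subunit over its constitutive counterpart within a library gives a ratio that no scaling factor touches. The ratio of Psmb9 to Psmb6 counts was 1.78 and 1.55 before and 0.269 and 0.394 after R848 in WT, and 0.947 and 1.21 before and 0.408 and 0.288 after in KO. Psmb10 to Psmb7 went from a mean of 0.401 ± 0.00677 (SD, n = 2) to 0.102 ± 0.0356 in WT and from 0.365 ± 0.0899 to 0.0929 ± 0.00888 in KO. Psmb8 to Psmb5 went from 3.53 ± 1.03 to 0.814 ± 0.414 in WT and from 2.92 ± 0.657 to 0.641 ± 0.0866 in KO. For each of the 3 pairs, all 4 R848 libraries lay below all 4 unstimulated ones. These ratios are given as a description, with no test, and they compare counts of genes of different length, so only their change has a meaning.

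**Figure D2:**
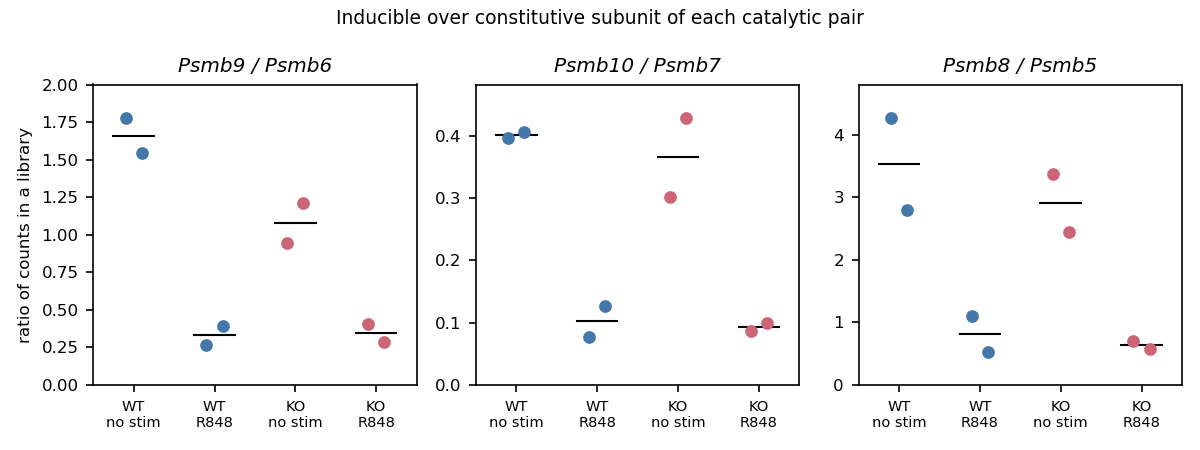
Ratio of counts of the inducible to the constitutive subunit of each catalytic pair in each library, on axes that start at 0. Points are the 2 libraries of a group and lines their mean. In each pair the 4 R848 libraries sit below the 4 unstimulated libraries, in both genotypes.

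Monocyte markers moved in both directions after R848. Of the 10, all detected, Csf1r and Cx3cr1 rose in both genotypes, with Csf1r, the receptor of macrophage colony-stimulating factor, up by 2.72 in WT and by 2.62 in KO on the log2 scale (adjusted p = 3.16e-118 and 1.67e-170). Ccr2, F13a1, Irf8, Ly6c2, Ctss and Klf4 fell in both, by 1.03 on the log2 scale in WT and 1.72 in KO for Ccr2, the receptor that brings monocytes out of the marrow (adjusted p = 0.00533 and 8.49e-27), and Ms4a6c passed in neither. The WT fall of Ccr2 was lost without WT_Nostim replicate 2 (-0.55, adjusted p = 0.401) and WT_R848 replicate 2 (-0.88, adjusted p = 0.111). The sum of the 10, as CPM of the whole library, was 1556 to 1648 before and 1370 to 1534 after R848 in WT, and 2376 to 2427 before and 1921 to 1959 after in KO. Of 6 T or NK cell markers, 5 were in the table and 3 detected, with Cd3e and Klrb1c at 0 in every library, and their sum was 32.0 to 39.0 CPM before and 9.83 to 12 after R848 in WT, and 18.1 to 20.9 before and 4.24 to 8.82 after in KO. The 6 stromal or endothelial markers, all detected, summed to 112 to 131 before and 23.9 to 24.6 after R848 in WT, and to 262 to 301 before and 26.3 to 32.6 after in KO, with most of the counts before R848 from Col1a1, a collagen gene. The 6 eosinophil, basophil or mast cell markers summed to 26.7 to 40.6 before and 19.7 to 25.4 after in WT, and to 22.7 to 26.5 before and 15 to 23.8 after in KO, and the 6 B cell markers to 4.92 to 17.6 over all libraries. The part of these cells in the fall of the inducible subunits was not tested. Exons of Psmb9 and of Tap1, its divergent neighbour that encodes a peptide transporter, share 212 bases on opposite strands, and the library kit does not keep strand, so reads in that stretch cannot be told apart. Tap1 was at 150 and 104 CPM before and 130 and 166 after R848 in WT, and did not pass there (log2 0.23, SE 0.17, adjusted p = 0.391). In KO Tap1 rose by 0.35 (SE 0.13, adjusted p = 0.0337), but was at -0.016 without KO_R848 replicate 1. Psmb7 shares 405 exon bases with Nek6 on the opposite strand in the same way. Psmb8 shares 498 with Gm20496, an antisense gene that was not among the genes tested.

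On GRCm38, Psmb9 (chr17:34181987-34187764, minus strand) and Psmb8 (chr17:34197721-34201454, plus strand) lie close together in the major histocompatibility complex, on either side of Tap1. Psme1 (chr14:55578123-55581529, plus strand) and Psme2 (chr14:55587441-55591113, minus strand) are also neighbours, and Psmb5 lies elsewhere on the same chromosome (chr14:54614119-54618022, minus strand). Psmb10 lies alone among them at chr8:105935735-105938444 on the minus strand.

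Promoter sequence was read for the catalytic pair Psmb5 and Psmb8, which moved in opposite directions, and for Psmb9 and Psme2, the members with the largest fall and rise in WT by adjusted p. RefSeq windows on GRCm38.p6 from 250 bases before to 50 bases after the start were at hand for 41 of the 49 members (44 windows). Psma8, Psmb1, Psmb2, Psmb7, Psmc3, Psmd3, Psmd7 and Psmg2 had none. The 250 bases before the start are printed 5′ to 3′ on the strand of the gene, with capitals for the antioxidant response element core (TGACNNNGC) in Psmb5 and the gamma-activated site (TTCNNNGAA) in Psmb8. Psme2 had 2 windows that overlap, and the one further downstream is shown.
Psmb5, chr14:54617996-54618245, minus strand: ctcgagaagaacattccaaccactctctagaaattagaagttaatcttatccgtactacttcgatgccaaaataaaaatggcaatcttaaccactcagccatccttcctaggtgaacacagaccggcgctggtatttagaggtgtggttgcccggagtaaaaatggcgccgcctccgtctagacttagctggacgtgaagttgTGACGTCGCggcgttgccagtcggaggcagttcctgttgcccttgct
Psmb8, chr17:34197945-34198194, plus strand: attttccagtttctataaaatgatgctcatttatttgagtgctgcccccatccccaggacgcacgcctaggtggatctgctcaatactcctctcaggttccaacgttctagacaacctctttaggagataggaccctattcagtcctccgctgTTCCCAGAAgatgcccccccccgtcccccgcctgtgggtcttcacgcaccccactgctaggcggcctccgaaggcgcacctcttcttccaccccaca
Psmb9, chr17:34187331-34187580, minus strand: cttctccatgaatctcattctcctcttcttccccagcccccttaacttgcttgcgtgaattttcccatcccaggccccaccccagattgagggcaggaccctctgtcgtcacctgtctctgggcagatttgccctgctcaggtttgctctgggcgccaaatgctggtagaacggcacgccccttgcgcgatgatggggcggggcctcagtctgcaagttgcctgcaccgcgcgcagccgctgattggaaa
Psme2, chr14:55591022-55591271, minus strand: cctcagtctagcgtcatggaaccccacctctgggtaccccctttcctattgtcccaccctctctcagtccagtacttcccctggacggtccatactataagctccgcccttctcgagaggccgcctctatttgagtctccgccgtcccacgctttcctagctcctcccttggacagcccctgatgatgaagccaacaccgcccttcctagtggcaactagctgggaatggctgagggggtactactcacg

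Both strands were searched, and overlaps between motifs were allowed. The antioxidant response element core was in the windows of 6 of 41 members (14.6%; Psmb5, Psmb6, Psmc6, Psmd9, Psmd12 and Psme4) and in 12.4% of all 32851 windows. The gamma-activated site was in 3 of 41 (7.32%; Psmb8, Psmd2 and Psmg1) and in 8.3% of all windows. The interferon-stimulated response element (GAAA and again GAAA, 2 bases apart) was in 5 of 41 (12.2%; Psmb3, Psmd4, Psmd9, Psme1 and Psmg4) and in 3.44% of all windows, and the NF-kB site was in 6 of 41 (14.6%) and in 8.46%. None of the 4 motifs was in the windows of Psmb9 or Psme2. A match describes letters in a window and not a bound site.

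Psme2, the PA28 beta subunit, had the smallest p of all members in the R848 responses of both genotypes. It was at 86.6 and 57.0 CPM in unstimulated WT, 275 and 283 in WT after R848, 63.3 and 74.7 in unstimulated KO, and 231 and 208 in KO after R848. The stimulated libraries lay far above the unstimulated ones in each genotype. Its log2 fold change was 1.94 (SE 0.17, adjusted p = 9.62e-29) in WT and 1.64 (SE 0.14, adjusted p = 1.14e-31) in KO, and the call held in all 15 alternatives. Psme1, the PA28 alpha subunit that pairs with it, rose less. It was at 105 and 93.2 CPM before and 159 and 142 after R848 in WT (log2 0.59, SE 0.18, adjusted p = 0.00689), and at 96.1 and 92.2 before and 113 and 151 after in KO (log2 0.49, SE 0.14, adjusted p = 0.00318). The KO rise of Psme1 was 0.14 (adjusted p = 0.654) without KO_R848 replicate 2, 0.40 (adjusted p = 0.268) with DESeq2 and 0.11 (adjusted p = 0.587) with library size alone, under which its WT value was 0.29 (adjusted p = 0.259).

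Neither Psme3 nor Psme4 rose. Psme3, which forms the nuclear PA28 gamma ring, was at 86.6 and 89.8 CPM before and 91.7 and 112 after R848 in WT, and at 120 and 112 before and 97.7 and 101 after in KO, and passed in neither genotype. Psme4, the PA200 activator, was at 57.2 and 79.4 CPM before and 57.1 and 46.0 after in WT (log2 -0.40, SE 0.25, adjusted p = 0.274), and it fell by 0.53 on the log2 scale in KO (SE 0.18, adjusted p = 0.0148), from 72.4 and 71.8 to 48.9 and 50.5 CPM. That fall did not pass with DESeq2 (-0.62, adjusted p = 0.174) or after thinning (-0.30, adjusted p = 0.447). Psmf1, the gene of PI31, a regulator of the core, was at 15.5 and 13.8 before and 12.2 and 5.31 after in WT and at 35.0 and 37.0 before and 26.7 and 29.4 after in KO, and passed in neither. Psme2b rose in WT on 5 and 2 counts before and 12 and 9 after R848 (adjusted p = 0.0185), but 541 of its 788 windows of 50 bases (68.7%) also occur in Psme2 transcripts, so its counts are uncertain.

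In the 19S cap, several subunits rose in both genotypes. Psmc2, an ATPase of the base, was at 68.0 and 44.9 CPM before and 132 and 115 after R848 in WT, and at 66.7 and 79.1 before and 139 and 121 after in KO, without overlap. The log2 fold change was 1.11 (SE 0.22, adjusted p = 3.13e-06) in WT and 0.82 (SE 0.15, adjusted p = 5.43e-07) in KO, and it passed in all 15 alternatives in both. Psmd1, a scaffold of the base, was at 46.4 and 70.8 before and 124 and 136 after R848 in WT (log2 1.17, SE 0.21, adjusted p = 4.12e-07) and at 87.1 and 93.6 before and 138 and 142 after in KO (log2 0.62, SE 0.14, adjusted p = 9.75e-05). The KO rise of Psmd1 did not pass with DESeq2 (0.54, adjusted p = 0.106) or with library size alone (0.24, adjusted p = 0.188). Psmd1 shares 252 exon bases with Htr2b on the opposite strand. Psmd7, a lid subunit that partners the deubiquitinase Psmd14, was at 24.7 and 22.4 before and 73.4 and 53.1 after R848 in WT (log2 1.40, SE 0.31, adjusted p = 6.02e-05). In KO it was at 55.4 and 59.5 before and 75.5 and 76.3 after (log2 0.39, SE 0.18, adjusted p = 0.0782), and that KO call was lost in 11 of 15 alternatives, among them each of the 6 that left out a library other than WT_Nostim replicate 1 or 2, with values from 0.25 to 0.46. Psmc5, another ATPase, was at 35.6 and 39.7 before and 30.6 and 54.9 after in WT, where the groups overlapped and it did not pass (log2 0.21, SE 0.30), and it rose from 39.6 and 53.7 to 98.6 and 87.3 CPM in KO (log2 0.95, SE 0.17, adjusted p = 5.07e-07).

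Counted over the set, 14 of 49 members rose after R848 in WT (28.6%), beside 13.5% of all genes tested, and 5 fell (10.2%), beside 16% of all genes. Changes of more than 2-fold were 6 higher, beside 7.17% of all genes, and 4 lower, beside 10.8%. In KO, 24 rose (49%), beside 19.2% of all genes, and 5 fell (10.2%), beside 15.9%; 2 rose by more than 2-fold (Psme2 and Psmb5), beside 8.07%, and 2 fell by more than 2-fold (Psmb9 and Psmb10), beside 8.84%. Most members were well counted, and among the 6912 genes with at least 10 counts on average the share called higher was 22.1% in WT and 30.5% in KO, against 13 and 24 of 42 members. The median log2 fold change of the 42 was 0.37 in WT and 0.35 in KO, beside -0.07 and 0.08 over those 6912 genes. The KO median of the members was 0.15 without KO_R848 replicate 1 and 0.21 to 0.22 without any 1 of the other R848 libraries, where that of all these genes was -0.05 to -0.06, and with library size alone the members' medians were 0.07 in WT and -0.03 in KO, beside -0.38 and -0.30.

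By role, 2 of 8 alpha subunits rose in WT (Psma4 and Psma6) and 4 in KO, with Psma6 at a log2 fold change of 0.46 (SE 0.20, adjusted p = 0.0696) in WT and 0.73 (SE 0.15, adjusted p = 5.12e-06) in KO. In WT the call of Psma4 was lost without WT_Nostim replicate 1 (0.46, adjusted p = 0.459) and WT_R848 replicate 2 (0.68, adjusted p = 0.229), and that of Psma6 without WT_Nostim replicate 2 (0.33, adjusted p = 0.38) and WT_R848 replicate 1 (0.49, adjusted p = 0.144). Of the 4 structural beta subunits 1 rose in each genotype, Psmb4, by 0.48 (SE 0.21, adjusted p = 0.0846) in WT and 0.31 (SE 0.13, adjusted p = 0.071) in KO. The KO rise of Psmb4 turned to -0.013 without KO_R848 replicate 1, and its WT rise was 0.23 (adjusted p = 0.595) without WT_Nostim replicate 2. Among the 6 ATPases 2 rose in WT and 5 in KO, and among the 11 non-ATPase subunits 4 rose in WT and 7 in KO, with none lower in either role. Among the KO rises, those of Psma2, Psmd2 and Psmd4 had adjusted p of 0.0578, 0.0754 and 0.089 and turned to -0.03, -0.11 and -0.03 with library size alone, and Psmd2 was at -0.047 and Psma2 at 0.046 without KO_R848 replicate 1. Of the 3 chaperones that assemble the cap (Psmd5, Psmd9, Psmd10), none passed in WT and 2 rose in KO. The 4 chaperones that assemble the core were low, with Psmg1 at 4 and 7 counts before and 0 and 2 after R848 in WT and Psmg4 at 3 and 3 before and 0 and 0 after, and these made up the remaining 2 falls in WT. Psmg1 also fell in KO, from 11 and 20 counts to 7 and 8 (adjusted p = 0.0908). These falls were fragile. That of Psmg1 passed in 8 of 15 alternatives in WT, and was lost without WT_Nostim replicate 2, WT_R848 replicate 1 or either KO_R848 replicate, and in 7 of 15 in KO, where it was lost without any 1 of the 4 KO libraries. That of Psmg4 passed in 7 of 14, was lost without any 1 of the 4 WT libraries, and had no adjusted p from DESeq2. No fold is given for them, since WT counts after R848 were at or under the floor of 3. Psma8, the alpha subunit of the testis, had 0 to 2 counts in each library.

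**Figure D3:**
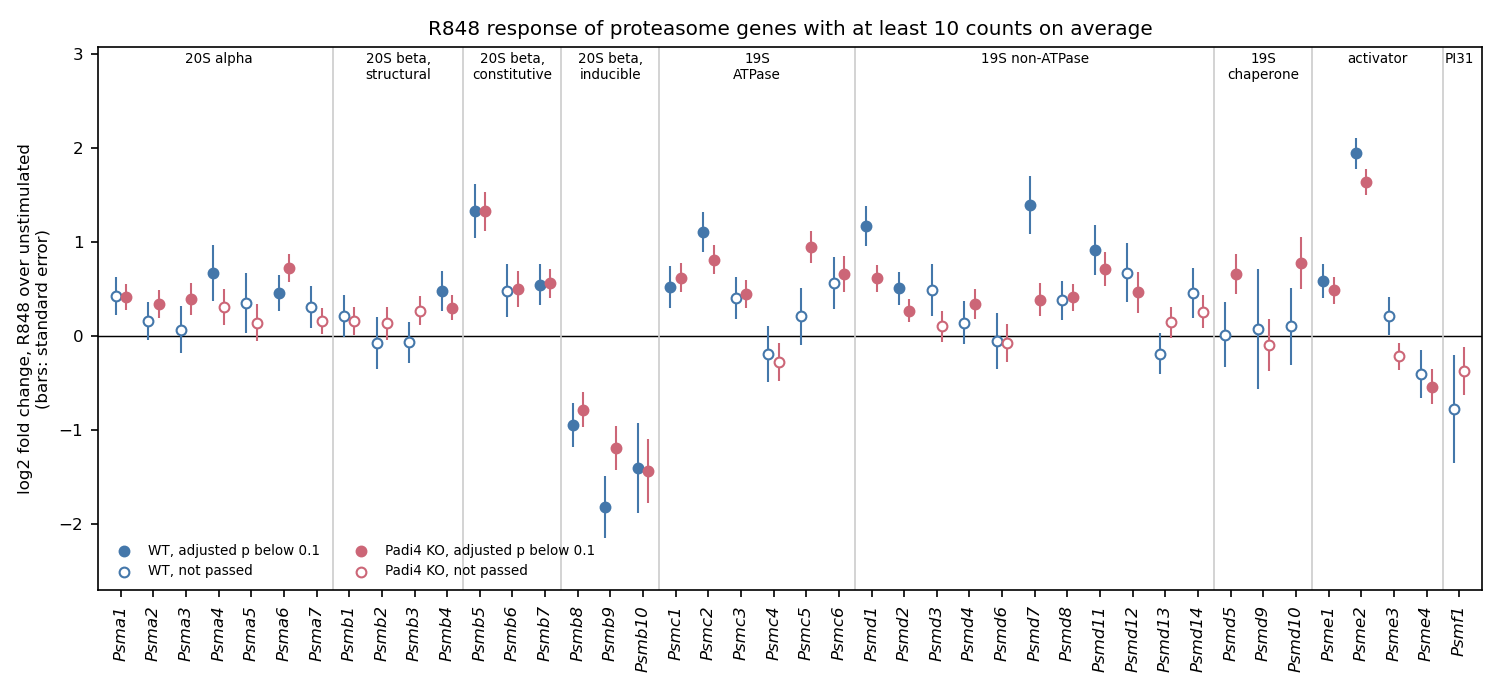
Log2 fold change after R848 of the 42 members that averaged 10 counts or more, by role, in WT and Padi4 KO neutrophils. Filled points passed the adjusted p of 0.1, open points did not, and bars are standard errors. The 3 inducible catalytic subunits lie lowest in both genotypes, from -0.78 to -1.81, and Psme2 lies highest, at 1.94 and 1.64.

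How many members rose depended on scaling, on depth and on single libraries. KO libraries were deeper than WT libraries, and with counts thinned to the smallest library fewer members rose in KO, as given in the closing section. Counts of rises in WT and KO, in all and by role, are thus not at equal depth and do not measure which genotype responded more. With library size alone, which moved the median of all genes by -0.30 in the WT response and -0.38 in the KO response, 7 members rose in WT and 5 in KO, and 10 fell in KO. DESeq2 gave 8 higher and 2 lower in WT, and 5 higher and 3 lower in KO. The WT count of 14 fell to 9 without WT_Nostim replicate 2, and the KO count of 24 fell to 9 without KO_R848 replicate 1, to 11 without KO_R848 replicate 2, to 15 without either WT_R848 replicate and to 16 without KO_Nostim replicate 2. Under every one of these alternatives Psme2, Psmb5 and Psmc2 rose and Psmb9 fell, in both genotypes. As shares of the library total, without any factor, the members other than Psmc3ip summed to 2574 and 2413 CPM before and 2606 and 2733 after R848 in WT, and to 3556 and 3732 before and 3659 and 3552 after in KO. These sums overlapped between treatments in KO, and in WT those after R848 were above those before. The 3 inducible subunits summed to 231 and 162 CPM before and 68.8 and 65.8 after R848 in WT, and 180 and 210 before and 72.3 to 78.1 after in KO.

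Levels can be set between genes once divided by exon length (CPM per kilobase of the GENCODE exon union). Among the 42 members, Psma6, an alpha subunit, ranked 1 without stimulation in both genotypes, at 71.6 in WT and 67.1 in KO. Psme2 ranked 4 in unstimulated WT (40.7) and 6 in unstimulated KO (39.1), and 1 after R848, at 158 in WT and 124 in KO. Psmb5 went from rank 8 to 3 in WT and from 16 to 3 in KO. Psmb8 went from rank 10 to 33 in WT and from 23 to 35 in KO, Psmb9 from 24 to 39 and from 33 to 38, and Psmb10 from 26 to 38 and from 30 to 39. Psmd9 and Psmf1 were in the lowest 4 of the 42 in all 4 groups. Ranks are a description, with no test.

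Genes that act with the proteasome were taken as a list of 41 symbols, of which 38 were in the table and tested, and 12 rose and 4 fell after R848 in WT, beside 13.5% and 16% of all genes, and 16 rose and 3 fell in KO, beside 19.2% and 15.9%. Nfe2l1, the transcription factor that drives proteasome genes when proteasome activity is short, was at 75.8 and 69.1 CPM before and 473 and 471 after R848 in WT, and at 84.8 and 61.7 before and 417 and 423 after in KO. Its log2 fold change was 2.70 (SE 0.15, adjusted p = 1.99e-68) in WT and 2.56 (SE 0.12, adjusted p = 4.01e-94) in KO. Nfe2l2, its relative in the oxidative stress response, which binds the antioxidant response element, rose by 2.40 (SE 0.12, adjusted p = 1.77e-85) and 2.14 (SE 0.11, adjusted p = 3.23e-89). B2m, the light chain of class I molecules, rose by 1.39 in both genotypes (SE 0.08 and 0.07, adjusted p = 1.96e-70 and 1.14e-80), from 880 and 1062 CPM to 2507 and 2564 in WT. The 9 genes of class I peptide supply in this list, B2m among them, moved both ways: 2 rose and 1 fell in WT, and 3 rose and 3 fell in KO. Tap2, which pairs with Tap1 in the peptide transporter, fell in both, by 0.80 on the log2 scale in WT (SE 0.19, adjusted p = 0.000185) and 0.41 in KO (SE 0.15, adjusted p = 0.0272), and Erap1, a peptide-trimming enzyme, and Lap3 fell in KO. The fall of Tap2 was lost in WT without WT_R848 replicate 1 (-0.48, adjusted p = 0.119) and in KO without KO_Nostim replicate 2 (-0.38, adjusted p = 0.183) and with DESeq2 (-0.50, adjusted p = 0.167), and DESeq2 did not call that of Lap3. Tapbp, which loads peptides onto class I molecules, rose by 0.40 (SE 0.13, adjusted p = 0.0108) in WT and 0.92 (SE 0.11, adjusted p = 2.9e-16) in KO, and lost the WT call without WT_Nostim replicate 2 (0.35, adjusted p = 0.108) and with library size alone (0.10, adjusted p = 0.613). It was lower in KO than in WT without stimulation, by 0.44 on the log2 scale (SE 0.13, adjusted p = 0.0055), but by 0.37 (adjusted p = 0.134) without WT_Nostim replicate 1. Its response was higher in KO by 0.52 (SE 0.17, adjusted p = 0.0637), and this difference passed in 5 of 15 alternatives, was lost without any 1 library other than WT_Nostim replicate 2, and was 0.19 (adjusted p = 0.827) without WT_R848 replicate 1.

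Without stimulation, 11 of 49 members were higher in KO than in WT neutrophils (22.4%), beside 9.55% of all genes tested, and 0 were lower, beside 14.4%. The 11 include Psmc3ip, which is not a proteasome subunit, on 1 and 0 counts in WT and 5 and 11 in KO. With at least 10 counts on average, 10 of 42 members were higher, beside 12.4% of 6912 genes, and 0 lower, beside 24.2%. At an unadjusted p below 0.05 by edgeR, 1 of the 49 members was lower (Psmb8), beside 2120 of all 12254 genes, and DESeq2 also called 0 lower. Psmd7 was higher by 1.29 on the log2 scale (SE 0.28, adjusted p = 5.33e-05), from 24.7 and 22.4 CPM in WT to 55.4 and 59.5 in KO. Psmd3, a lid subunit, was at 51.0 and 32.8 in WT and 72.4 and 85.6 in KO (log2 0.92, SE 0.22, adjusted p = 0.000469). Psmd9, a chaperone of the cap, was at 10.8 and 6.91 in WT and 28.3 and 26.1 in KO (log2 1.57, SE 0.43, adjusted p = 0.00252), and Psmf1 was at 15.5 and 13.8 in WT and 35.0 and 37.0 in KO (log2 1.29, SE 0.35, adjusted p = 0.00238). For each of these 4 genes both KO libraries lay above both WT libraries. Psmd9 shares 1849 of its 7248 exon bases with Gm26745, a lincRNA on the opposite strand, so reads in that stretch cannot be told apart. Psmb4 was higher by 0.63 (SE 0.18, adjusted p = 0.00408), but by 0.38 (adjusted p = 0.286) without WT_Nostim replicate 2 and by 0.51 (adjusted p = 0.127) without KO_Nostim replicate 2. Psmd1 was higher by 0.65 (SE 0.20, adjusted p = 0.00942), but by 0.36 (adjusted p = 0.433) without WT_Nostim replicate 1. The count of 11 was 7 without WT_Nostim replicate 2 or KO_Nostim replicate 2, 17 without either KO_R848 replicate and 18 without either WT_R848 replicate, and DESeq2 called 3. None of the 6 catalytic subunits passed, and their log2 differences ran from -0.38 for Psmb8 to 0.27 for Psmb6.

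After R848, 7 members were higher in KO than in WT (14.3%), beside 9.46% of all genes, and 2 were lower (4.08%), beside 7.81%. With at least 10 counts on average, 7 of 42 members were higher, beside 12.9% of 6912 genes, and 1 lower, beside 13.4%. Psmc5 had the smallest p, though not the largest difference, at 30.6 and 54.9 CPM in WT and 98.6 and 87.3 in KO (log2 1.09, SE 0.22, adjusted p = 2.96e-05). The Psmc5 difference was 0.62 without WT_R848 replicate 1. Psmf1 was higher again, by 1.70 (SE 0.45, adjusted p = 0.00257), or 1.10 (adjusted p = 0.225) without WT_R848 replicate 2. Psmd9 was also higher again, by 1.40 (SE 0.45, adjusted p = 0.0189), and lost the call without either WT_R848 replicate (1.36 and 1.22, adjusted p = 0.132 and 0.213). Psmd5, another chaperone of the cap, was higher by 0.76 (SE 0.27, adjusted p = 0.0415), and this call was lost without any 1 of the 4 R848 libraries, with values from 0.49 to 0.80. Psme2 was lower in KO by 0.35 on the log2 scale (SE 0.12, adjusted p = 0.0359), at 231 and 208 CPM against 275 and 283, but did not pass with DESeq2 (-0.45, adjusted p = 0.178), after thinning (-0.29, adjusted p = 0.217) or with library size alone (-0.13, adjusted p = 0.543). The other lower member was the uncertain Psme2b. The count of 7 fell to 1 without WT_R848 replicate 1, to 3 without WT_R848 replicate 2 or KO_R848 replicate 1, and DESeq2 called 1.

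**Figure D4:**
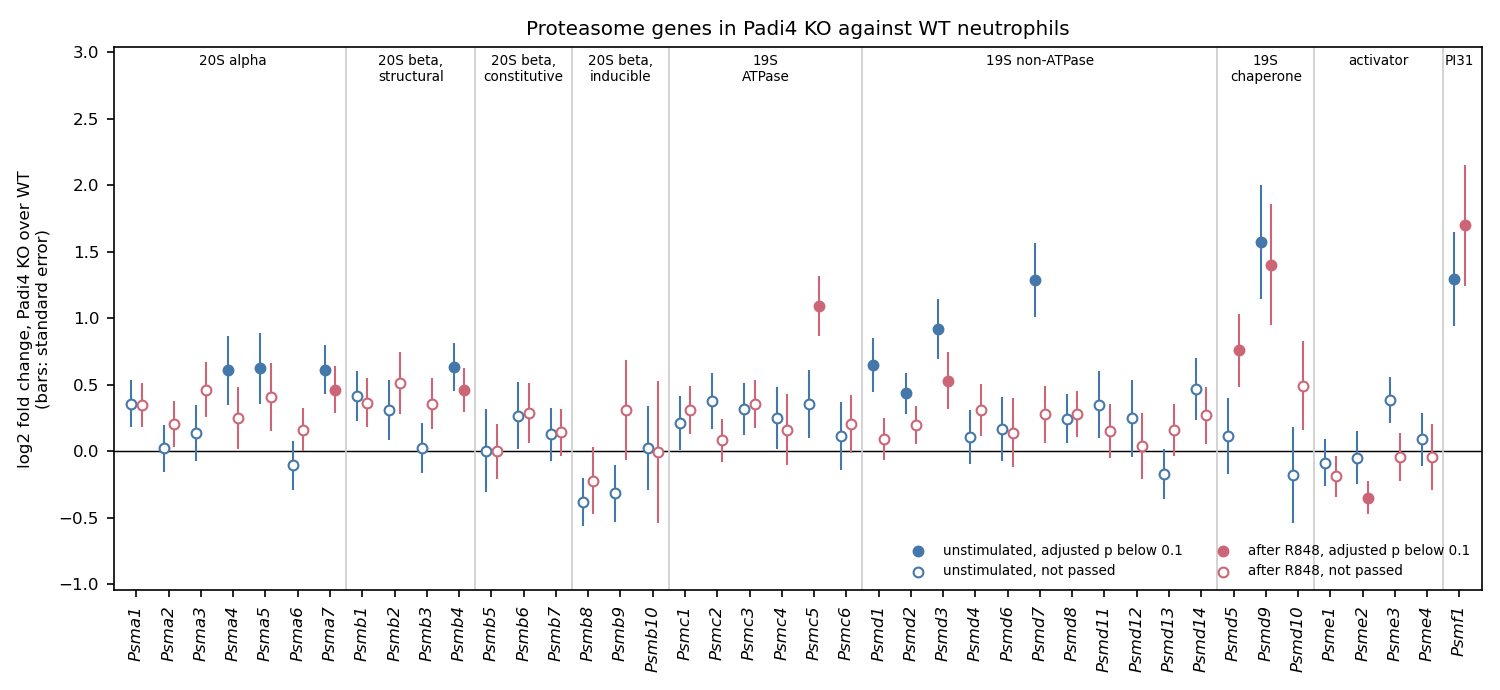
Log2 difference of Padi4 KO from WT neutrophils for the 42 members that averaged 10 counts or more, by role, without stimulation and after R848. Filled points passed the adjusted p of 0.1, open points did not, and bars are standard errors. Psmd9 and Psmf1 are the members above 1 in both states, while the catalytic subunits lie between -0.38 and 0.31.

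The median log2 difference of the 42 members was 0.25 without stimulation and 0.27 after R848, beside -0.16 and -0.002 over the 6912 genes with at least 10 counts. Without stimulation it was 0.38 to 0.40 when any 1 of the 4 R848 libraries was left out (all genes -0.03 to -0.01), and after R848 it was 0.12 without WT_R848 replicate 1 (all genes -0.14) and 0.11 without KO_R848 replicate 1 (all genes -0.11). With library size alone the members' medians were 0.53 and 0.49, the median of all genes moved by 0.29 and 0.21, and 23 and 21 members were higher in KO. Markers of other cells moved with genotype too. Of 14 erythroid markers, 13 were in the table and 9 detected, and the 4 hemoglobin genes were at 0 in every library; the sum was 251 to 257 CPM of the whole library in unstimulated WT, 905 to 917 in unstimulated KO, 235 to 297 in WT after R848 and 1323 to 1338 in KO after R848. Monocyte markers were at the higher sums in KO given above, and the stromal or endothelial sum was higher in unstimulated KO than in unstimulated WT, as also given above. The part of these cells in the higher proteasome counts of KO was not tested.

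Whether R848 acted differently on these genes in the 2 genotypes was tested as the difference of the responses. By edgeR's quasi-likelihood test 0 of 49 members passed in either direction, beside 3.45% of all genes with a higher response in KO and 1.26% with a lower one. At an unadjusted p below 0.05 in that test there were 5 of 49, beside 1638 of all 12254 genes. Of these 5, 3 averaged 10 counts or more. DESeq2 called 0 members. Psmd7 came nearest, with a KO response lower by 1.01 on the log2 scale (SE 0.36, adjusted p = 0.107), and it passed in 8 of 15 alternatives, with adjusted p from 0.0123 without WT_R848 replicate 2 to 0.312 without WT_Nostim replicate 2, while DESeq2 gave it no adjusted p. Its 2 KO groups and the WT group after R848 were at 53.1 to 76.3 CPM and unstimulated WT was at 22.4 and 24.7. For Psmd1 the difference was -0.55 (SE 0.26, adjusted p = 0.3), or -0.89 (adjusted p = 0.0665) without WT_R848 replicate 1. It was 0.74 for Psmc5 (SE 0.35, adjusted p = 0.326), -0.43 for Psme3 (SE 0.25, adjusted p = 0.488) and 0.64 for Psmd5 (SE 0.40, adjusted p = 0.532). For the catalytic subunits the differences were between -0.03 and 0.62, with the largest in Psmb9 (SE 0.43, adjusted p = 0.586). An adjusted p above the threshold does not show that the 2 genotypes responded alike.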

How the data were processed

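RNA libraries of 8 samples (4 groups of 2) were analysed from the count table. The authors trimmed reads with cutadapt 1.16, checked them with FastQC 0.11.7, mapped them to mm10 with STAR 2.5.3a and counted them with HTSeq 0.6.1p1, per the labels and the paper's methods, and the deposited values are raw counts per gene symbol. Annotation and strand setting are not given in the sources used here. Of the reads tallied, 87.0% to 89.5% fell on genes, and the 5 HTSeq summary lines were left out. Samples were grouped by their descriptions.

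Genes with at least 1 count in at least 2 libraries were fitted in R 4.3.3 with edgeR 4.0.16 (limma 3.58.1): TMM factors, 1 mean per group, robust quasi-likelihood test, Benjamini-Hochberg adjustment over all 12254 genes, called below 0.1. The 2-fold limit follows the study. Standard errors are the log2 fold change over the square root of F. The procedure was tested on simulated data. Sums over marker and member lists use library totals. Full statistics were given to the 6 catalytic subunits, Psme1 to Psme4, Psmf1, the 5 members with the smallest p in each contrast and the 4 such genes of the pathway list in each response, all with at least 10 counts on average. One gene this rule names is not reported here. Psma2, Psma4, Psma6, Psmd2, Psmd4, Psme2b, Psmg1, Psmg4, Tap1, Tap2, Csf1r and Ccr2 were added outside this rule, once their values had been seen. Members and lists were chosen with earlier results of these data known. Alternatives were DESeq2 1.42.0, the filterByExpr filter, no filter, library size alone, relative log expression factors, counts thinned to the smallest library, a block for the replicate number, and each library left out. Exon lengths and overlaps are from GENCODE on GRCm38, the build of mm10. Floors cover counting error only, while the standard errors, taken from F, also draw on the spread between duplicates.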

Additional observations from a re-analysis of the deposited data

How the results depend on the processing

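Depth limits these results: the smallest library held 562446 counts, and 7 of the 49 members had under 10 counts on average. Same-numbered libraries did not deviate together (correlations of duplicate differences between groups from -0.020 to 0.020 over 6912 genes). Outside WT after R848, duplicates differed by little more than counting error (chi-square of 1.05 to 1.16 per degree of freedom). The correlations therefore cannot tell whether same-numbered libraries were paired. Fitting the replicate number as a block changed the counts of calls by at most 1.5 times except that 1 member (Psmd7) had a lower response in KO. For members higher after R848 in WT (14), DESeq2 gave 8 and library size alone 7; for those lower (5), DESeq2 gave 2 and thinned counts 3, and for those lower by more than 2-fold (4) DESeq2 gave 1. In KO, members higher (24) were 5 by DESeq2, 5 by library size alone and 13 after thinning; those lower (5) were 3 and 10 by the first 2 of these; those past 2-fold were 1 higher and 5 lower by library size alone, and 1 lower after thinning. For KO against WT without stimulation (11 higher), DESeq2 gave 3 and library size alone 23. After R848 (7 higher, 2 lower), the higher were 1 by DESeq2, 4 by relative log expression factors and 21 by library size alone, and the lower were 0 by DESeq2 and 1 by filterByExpr, library size alone and thinning alike. For a lower response in KO (0), filterByExpr, relative log expression factors, library size alone and thinning each gave 1. Leaving out 1 library gave 9 to 19 higher and 2 to 5 lower in the WT response (4 to 7 and 2 to 4 past 2-fold), 9 to 24 higher and 4 to 7 lower in the KO response (2 to 3 and 1 to 3 past 2-fold), 7 to 18 higher and 0 to 1 lower in KO against WT without stimulation, 1 to 7 higher and 1 to 3 lower after R848, and 0 higher and 0 to 1 lower for the difference of responses. Of the members called in a contrast, 4 changed sign by library size alone (Psma2, Psmb4, Psmd2 and Psmd4, all in the KO response) and 2 without KO_R848 replicate 1 (Psmb4 and Psmd2). Psmb4 in the KO response turned to -0.071 by library size alone, and ran from -0.013 (without KO_R848 replicate 1) to 0.44 with 1 library left out. The causes were not tested.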
